A study of Homo sapiens with 16 samples.

Results

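MOB3C, NHLRC3, MED24, ZDHHC18, NEK7 and TRUB1 are 6 protein-coding genes, of 67938 gene identifiers measured, whose RNA was balanced differently between nucleus and cytoplasm in cells that received siRNAs against PANAD. They were chosen by measured values of that change: the nucleus to cytoplasm ratio of MOB3C, NHLRC3, MED24 and ZDHHC18 was higher with the siRNAs in both cell lines studied, that of NEK7 was lower in both, and that of TRUB1 was chosen as lower in SNU-449. All 6 passed the filter on low counts in both lines, among 17499 genes tested in HepG2, 17895 in SNU-449 and 15017 in both. Because the ratio shift chose the genes, it and its cytoplasmic and nuclear parts are described here without a test.

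The study took HepG2, a liver line from a hepatoblastoma that keeps hepatocyte features, and SNU-449, derived from a hepatocellular carcinoma, and transfected each for 48 h with NC (a negative control siRNA) or with siPANAD-1 and siPANAD-2 mixed (siPANAD). PANAD is the protein encoded by C7orf25, and the series title links it to NXF1 and to nuclear export of CDK6 mRNA. Cytoplasmic and nuclear RNA of each culture condition was sequenced from 2 libraries, which the design text calls biological duplicates, giving 8 groups and 16 libraries. The 4 groups in each line were therefore cytoplasm NC, cytoplasm siPANAD, nucleus NC and nucleus siPANAD; no untransfected group was analysed here, and the 2 siRNAs cannot be told apart because they were given as a mixture.

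Messenger RNA is made and spliced in the nucleus, and most of it leaves through nuclear pores bound to the export receptor NXF1 and its partners. The steady-state ratio of nuclear to cytoplasmic RNA of a gene reflects synthesis, export and decay in both compartments, so a ratio alone does not say which of these changed. The 6 proteins have unrelated roles. MOB3C belongs to the MOB family of small kinase adaptors, whose MOB1 members activate the LATS kinases of the Hippo pathway. ZDHHC18 is a membrane enzyme that attaches palmitate to cysteines of other proteins. NEK7 is a NIMA-related kinase of the mitotic spindle that is also needed for assembly of the NLRP3 inflammasome. MED24 is a tail subunit of Mediator, the complex that connects transcription factors with RNA polymerase II. TRUB1 makes pseudouridine in tRNAs and in some mRNAs. NHLRC3 carries NHL repeats, a beta-propeller fold shared with several TRIM ubiquitin ligases, and its own role is little known.

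On GRCh38 with GENCODE 29, MOB3C (ENSG00000142961) lies at chr1:46607715-46616891 on the minus strand, ZDHHC18 (ENSG00000204160) at chr1:26826710-26857602 on the plus strand and NEK7 (ENSG00000151414) at chr1:198156963-198322420 on the plus strand. NHLRC3 (ENSG00000188811) lies at chr13:39038306-39050109 on the plus strand, MED24 (ENSG00000008838) at chr17:40019097-40061215 on the minus strand and TRUB1 (ENSG00000165832) at chr10:114938193-114977676 on the plus strand. The upstream stretches of MOB3C and NHLRC3 are shown because each of these genes starts close to another measured gene, so that the pair can be compared below. Both are RefSeq promoter sequences on GRCh38.p14, without the part that overlaps annotated exons. The MOB3C stretch is chr1:46616892-46617061 and the NHLRC3 stretch is chr13:39038077-39038305, each printed on the strand of the gene. Capitals mark matches on either strand to GGGCGG (GC box, CCGCCC on the other strand), CCGGAA (ETS core, TTCCGG) and ATGGCG (YY1 core, CGCCAT). The CCAAT box (CCAAT or ATTGG) and the TATA box (TATAAA or TTTATA) were also searched and had no match in these windows.
MOB3C: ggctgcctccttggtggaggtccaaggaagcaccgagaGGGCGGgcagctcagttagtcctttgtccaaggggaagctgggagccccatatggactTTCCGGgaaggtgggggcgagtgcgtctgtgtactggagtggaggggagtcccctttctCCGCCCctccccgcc
NHLRC3: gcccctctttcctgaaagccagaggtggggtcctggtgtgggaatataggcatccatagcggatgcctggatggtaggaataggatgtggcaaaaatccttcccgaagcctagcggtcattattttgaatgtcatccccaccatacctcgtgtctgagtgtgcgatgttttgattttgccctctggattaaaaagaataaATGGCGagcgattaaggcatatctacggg
The MOB3C stretch of 170 bases held 2 GGGCGG matches, found at least once in 29.5% of the 35116 RefSeq promoters in the same window, and 1 CCGGAA match, found in 7.89%. The NHLRC3 stretch of 229 bases is the whole gap between the annotated starts of NHLRC3 and of PROSER1, which runs the other way. It held 1 ATGGCG match, found in 6.01% of promoters in the same window. A match is a description of letters and not of binding. The promoter table gave none for ZDHHC18 and NEK7, and the stretch upstream of the RefSeq start of MED24 was covered by annotated exons.

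Libraries held 16238235 to 30321908 counts, the highest in HepG2 cytoplasm NC replicate 2, and the next highest library held 19498081. The 2 HepG2 cytoplasm NC libraries also disagreed most. Their chi-square per degree of freedom, a measure of spread beyond counting error that grows with depth, was 33.0. In the other groups it was 4.48 to 12.3. This group is the control for every HepG2 cytoplasmic change. C7orf25, the targeted gene, had 0 to 7 counts per library (0 to 7 with NC and 0 to 4 with siPANAD), around the 3 counts that a count of 0 allows, so these counts cannot check the knockdown. Unscaled MALAT1, a nuclear RNA, was at 2.21 to 5.84 CPM (its share of the library's counts) in cytoplasmic and 370 to 634 CPM in nuclear libraries, and GAPDH was at 4045 to 5934 and 884 to 1365 CPM. In HepG2 all 10 hepatocyte markers checked exceeded 1 CPM in at least 1 library, whereas in SNU-449 5 of 10 stayed under 1 CPM in every library and APOB had 0 counts. Of 8 mesenchymal markers, 0 in SNU-449 and 3 in HepG2 stayed under 1 CPM throughout. The lists did not split the lines cleanly. Among mesenchymal markers VIM was at 1080 to 1750 CPM in SNU-449 and at most 0.244 CPM in HepG2. FN1 went the other way, at 4.85 to 73.5 CPM in SNU-449 and 1111 to 7314 CPM in HepG2. The hepatocyte marker FGB reached 272 CPM in SNU-449 and 129 CPM in HepG2. Of 9 immune and blood markers, 6 in HepG2 and 8 in SNU-449 stayed under 1 CPM, and the leukocyte gene PTPRC had at most 2 counts in any HepG2 library while LYZ, also made by some epithelial cells, reached 505 CPM there. Of 5 endothelial markers, 3 stayed under 1 CPM in each line, KDR in HepG2 and TEK in SNU-449 at 0 counts.

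MOB3C was lower in the cytoplasm with siPANAD, with little difference in the nucleus. In HepG2 its level, as TMM-normalised CPM (with each library scaled to its typical gene), was 12.9 and 13.2 in the 2 cytoplasm NC libraries and 4.64 and 5.25 with siPANAD. Its nuclear values in that line were 9.84 and 7.20 with NC and 10.6 and 10.4 with siPANAD. Every siPANAD library was below the NC libraries in the cytoplasm and above them in the nucleus. In SNU-449 the cytoplasmic values were 16.3 and 16.9 with NC and 5.26 and 4.86 with siPANAD. Those in SNU-449 nuclei were 12.01 and 14.0 with NC and 15.0 and 13.4 with siPANAD, and these groups overlapped. The nucleus to cytoplasm ratio of group means was 0.653 with NC and 2.13 with siPANAD in HepG2, and 0.786 and 2.80 in SNU-449. On the log2 scale this is a shift, defined as the nuclear minus the cytoplasmic log2 fold change, of 1.70 (SE 0.26) in HepG2 and 1.83 (SE 0.22) in SNU-449. The cytoplasmic part was -1.40 (SE 0.19) and -1.71 (SE 0.17), and the nuclear part 0.30 (SE 0.17) and 0.12 (SE 0.13).

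NHLRC3 was lower in the cytoplasm and higher in the nucleus with siPANAD. In HepG2 it was at 14.6 and 21.1 CPM in cytoplasm NC and 10.9 and 11.3 CPM in cytoplasm siPANAD libraries. The HepG2 nuclear libraries held 29.3 and 32.0 CPM with NC and 60.5 and 49.0 CPM with siPANAD. In neither compartment did the siRNA groups overlap. In SNU-449 the cytoplasm held 8.87 and 10.8 CPM with NC and 5.49 and 5.72 CPM with siPANAD. The SNU-449 nucleus held 18.3 and 16.8 CPM with NC and 34.0 and 33.2 CPM with siPANAD, again without overlap. In control cells the nucleus to cytoplasm ratio of NHLRC3, relative to the typical gene, was 1.72 in HepG2 and 1.79 in SNU-449. With siPANAD the ratio was 4.94 and 5.99. The shift of 1.54 (SE 0.23) in HepG2 was made of -0.70 (SE 0.17) in the cytoplasm and 0.84 (SE 0.15) in the nucleus. The shift of 1.74 (SE 0.21) in SNU-449 was made of -0.81 (SE 0.17) and 0.94 (SE 0.12).

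MED24, the Mediator subunit, was lower in the cytoplasm with siPANAD, to a similar extent in both lines. Its HepG2 cytoplasmic values were 128 and 108 CPM with NC against 29.5 and 33.2 CPM with siPANAD. The HepG2 nuclear values were 164 and 173 CPM with NC against 124 and 136 CPM with siPANAD. The siPANAD libraries were thus the lower ones in both compartments, with a wider gap in the cytoplasm. In SNU-449 the cytoplasm gave 76.8 and 79.5 CPM with NC and 21.6 and 21.5 CPM with siPANAD. The SNU-449 nucleus gave 56.1 and 64.7 CPM with NC and 51.7 and 59.1 CPM with siPANAD, which overlapped. The ratio of group means was 1.43 with NC and 4.14 with siPANAD in HepG2, and 0.773 and 2.57 in SNU-449. The shifts were 1.53 (SE 0.19) and 1.73 (SE 0.15), with cytoplasmic parts of -1.92 (SE 0.14) and -1.86 (SE 0.11) and nuclear parts of -0.38 (SE 0.13) and -0.12 (SE 0.10).

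ZDHHC18, the palmitoyltransferase, was lower with siPANAD in both compartments of both lines, and most of all in the cytoplasm. In HepG2 cytoplasm it was at 127 and 136 CPM with NC and 35.5 and 35.1 CPM with siPANAD. In HepG2 nuclei it was at 37.9 and 48.6 CPM with NC and 33.5 and 35.2 CPM with siPANAD. The SNU-449 cytoplasm, with 297 and 328 CPM in NC libraries, held the highest levels of any of the 6 genes in CPM, and the siPANAD libraries there held 57.2 and 64.7 CPM. The SNU-449 nuclei held 86.4 and 79.4 CPM with NC and 44.9 and 46.2 CPM with siPANAD, so no pair of siRNA groups overlapped. The ratio of ZDHHC18 was 0.329 with NC and 0.973 with siPANAD in HepG2 and 0.265 and 0.747 in SNU-449. These ratios are relative to the typical gene, so that a ratio of 1 is not an equal amount in both fractions. Its shifts were 1.56 (SE 0.19) and 1.49 (SE 0.14), from -1.90 (SE 0.14) and -2.36 (SE 0.10) in the cytoplasm and -0.33 (SE 0.13) and -0.86 (SE 0.10) in the nucleus.

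NEK7, the spindle and inflammasome kinase, was higher in the cytoplasm with siPANAD. Its HepG2 cytoplasmic values were 2.02 and 3.76 CPM with NC, from 28 and 93 counts, and 11.2 and 13.6 CPM with siPANAD, from 140 and 173 counts. The HepG2 nuclear values were 4.43 and 4.04 CPM with NC and 7.68 and 4.99 CPM with siPANAD. Both siPANAD groups lay above their NC groups, and the 2 siPANAD nuclear libraries differed from each other by more than the gap between the groups. In SNU-449 the cytoplasm gave 9.09 and 5.03 CPM with NC and 21.0 and 25.4 CPM with siPANAD. The SNU-449 nucleus gave 14.5 and 14.8 CPM with NC and 18.4 and 17.7 CPM with siPANAD. NEK7 had the largest SE of the shift among the 6 genes in both lines. The ratio was 1.47 with NC and 0.511 with siPANAD in HepG2 and 2.08 and 0.780 in SNU-449. The shifts were -1.44 (SE 0.34) and -1.42 (SE 0.24), with cytoplasmic parts of 2.03 (SE 0.25) and 1.72 (SE 0.18) and nuclear parts of 0.58 (SE 0.24) and 0.30 (SE 0.15).

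TRUB1, the pseudouridine synthase, was also higher in the cytoplasm, in both lines although the choice named only SNU-449. In HepG2 cytoplasm it was at 14.6 and 13.6 CPM with NC and 33.5 and 35.0 CPM with siPANAD. In HepG2 nuclei it was at 13.6 and 12.4 CPM with NC and 12.7 and 11.9 CPM with siPANAD, and these overlapped. In SNU-449 cytoplasm it was at 10.9 and 10.6 CPM with NC and 44.6 and 59.2 CPM with siPANAD, the widest gap of TRUB1 in any compartment. In SNU-449 nuclei it was at 12.01 and 14.2 CPM with NC and 17.1 and 16.8 CPM with siPANAD. The TRUB1 ratio was 0.923 with NC and 0.358 with siPANAD in HepG2, and 1.22 and 0.327 in SNU-449. Its shift was -1.37 (SE 0.20) in HepG2 and -1.90 (SE 0.20) in SNU-449. The SNU-449 minus HepG2 difference of -0.51 (SE 0.29) is given without a test. The cytoplasmic part was 1.29 (SE 0.14) and 2.27 (SE 0.14), and the nuclear part -0.08 (SE 0.14) and 0.37 (SE 0.13).

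**Figure D1:**
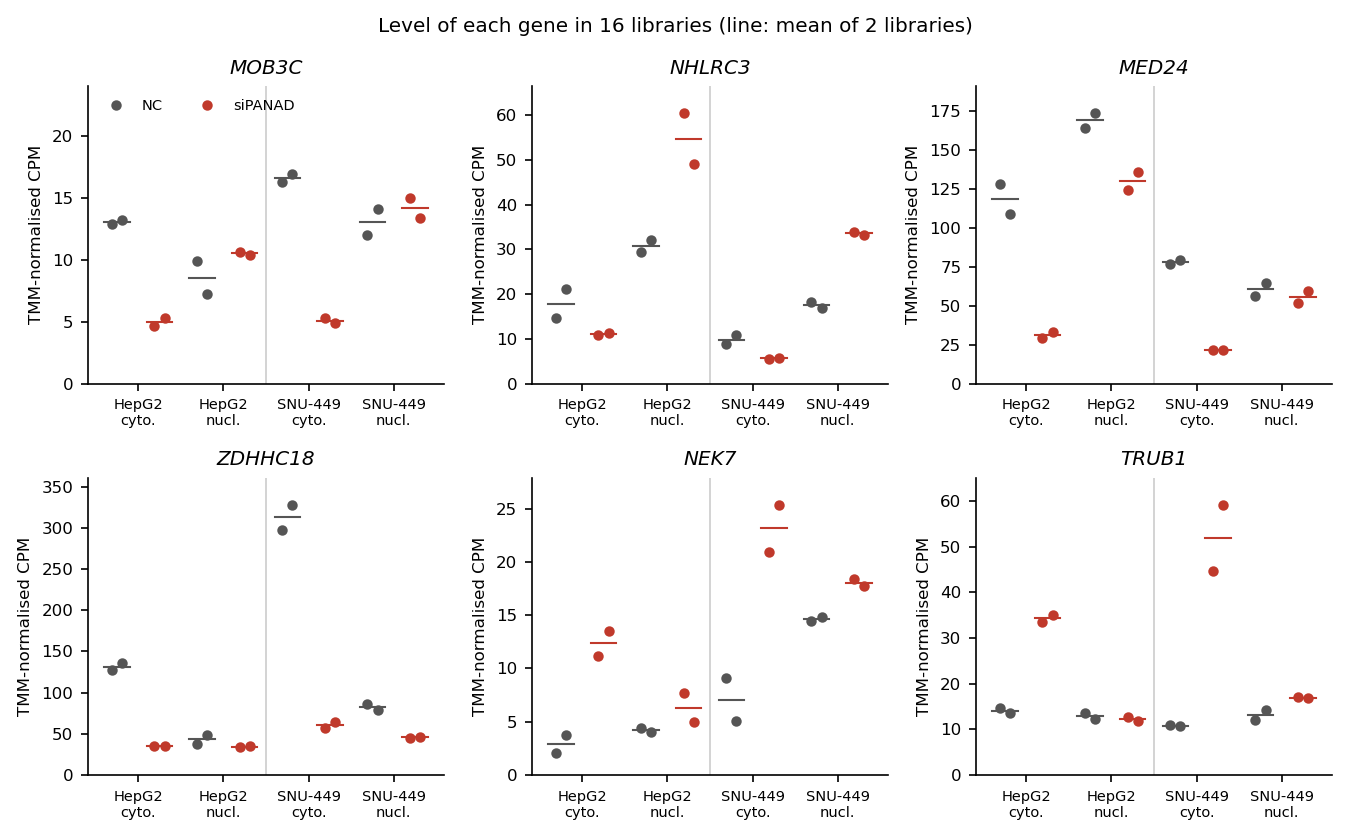
Level of MOB3C, NHLRC3, MED24, ZDHHC18, NEK7 and TRUB1 in 16 libraries; the vertical axis is TMM-normalised CPM from 0, points are libraries (grey NC, red siPANAD), short lines are means of 2 libraries, and the horizontal axis gives line and fraction. In both cytoplasms the red points lie below the grey ones for MOB3C, NHLRC3, MED24 and ZDHHC18 and above them for NEK7 and TRUB1, whereas nuclear groups overlap for MOB3C and MED24 in SNU-449 and for TRUB1 in HepG2.

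Across the 6 genes the range of nucleus to cytoplasm ratios over all pairings of a nuclear with a cytoplasmic library did not overlap between NC and siPANAD in either line. This ratio chose the genes, and the share of all genes without overlap is not given here, so nothing is read from it. Over all genes tested, the ratio shift passed an adjusted p under 0.05 (edgeR's quasi-likelihood test, Benjamini-Hochberg) upwards for 4.91% and downwards for 4.98% in HepG2 (9.89% in all), and for 9.69% and 10.5% in SNU-449 (20.2% in all). In the same direction in both lines it passed upwards for 450 of 15017 genes (3%) and downwards for 369 (2.46%); this contrast chose the genes, so nothing is read from it. Ordered by the smaller of the 2 shifts among the 450 genes up in both lines, MOB3C was 7th, NHLRC3 12th, MED24 13th and ZDHHC18 15th, with SRGAP2B next at 1.48. ADAM17 at 14 was among the 11 genes of those first 15 that were not chosen. Among the 369 genes down in both lines NEK7 was 5th and TRUB1 7th, with RPL7AP70 next at -1.34. In the order of all genes of a line, MOB3C was at rank 638 from the top in HepG2 and 499 in SNU-449. The genes ranked directly above and below each of the 6 differed from it by at most 0.005 on the log2 scale. In HepG2 those with a symbol were CDC42-AS1 and LGALS7 beside MOB3C, MIR194-2HG and JMJD7-PLA2G4B beside MED24, DGKD and FBXW4P1 beside ZDHHC18, EEF1A1P18 and UTP14A beside NEK7, and PDE2A and EIF4BP3 beside TRUB1. In SNU-449 they were CCDC81 and CD160 beside MOB3C, MCU and OSCAR beside NHLRC3, ASB4 beside MED24, TMEM161B-DT beside ZDHHC18, SNCAIP and DDX18 beside NEK7, and PDE6C beside TRUB1.

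**Figure D2:**
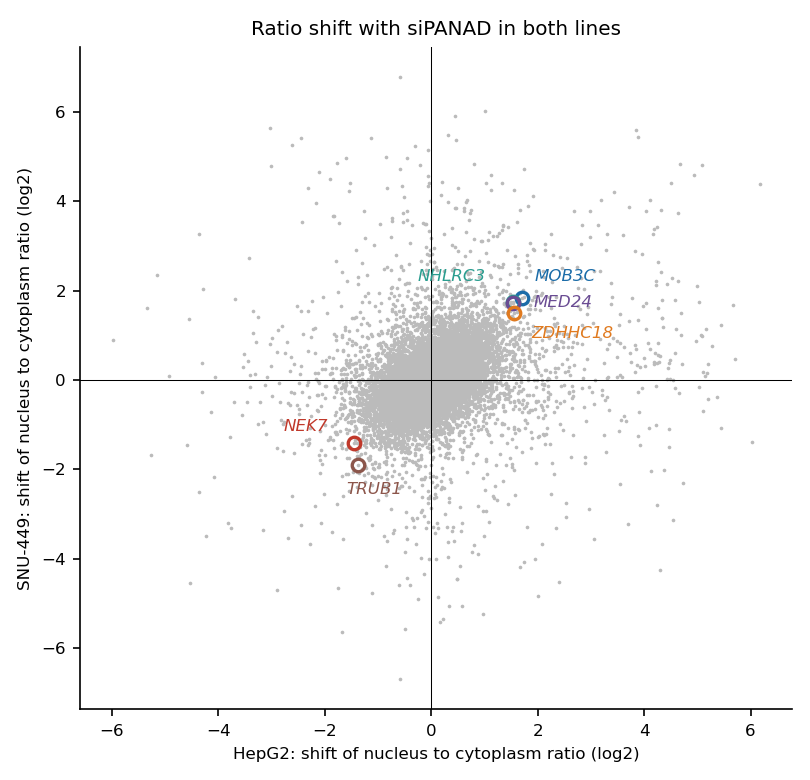
Shift of the nucleus to cytoplasm ratio with siPANAD in HepG2 (horizontal, log2) against SNU-449 (vertical, log2); grey points are 15017 genes tested in both lines and rings are the 6 genes. MOB3C, NHLRC3, MED24 and ZDHHC18 lie between 1.49 and 1.83 on both axes, and NEK7 and TRUB1 between -1.90 and -1.37, inside the range of the grey points.

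The cytoplasm carried most of the shift in 5 of the 6 genes. The cytoplasmic part was larger in size than the nuclear part for MOB3C, MED24, ZDHHC18, NEK7 and TRUB1 in both lines, and the nuclear part was the larger for NHLRC3 in both. These are parts of the shift that chose the genes and share its libraries.

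**Figure D3:**
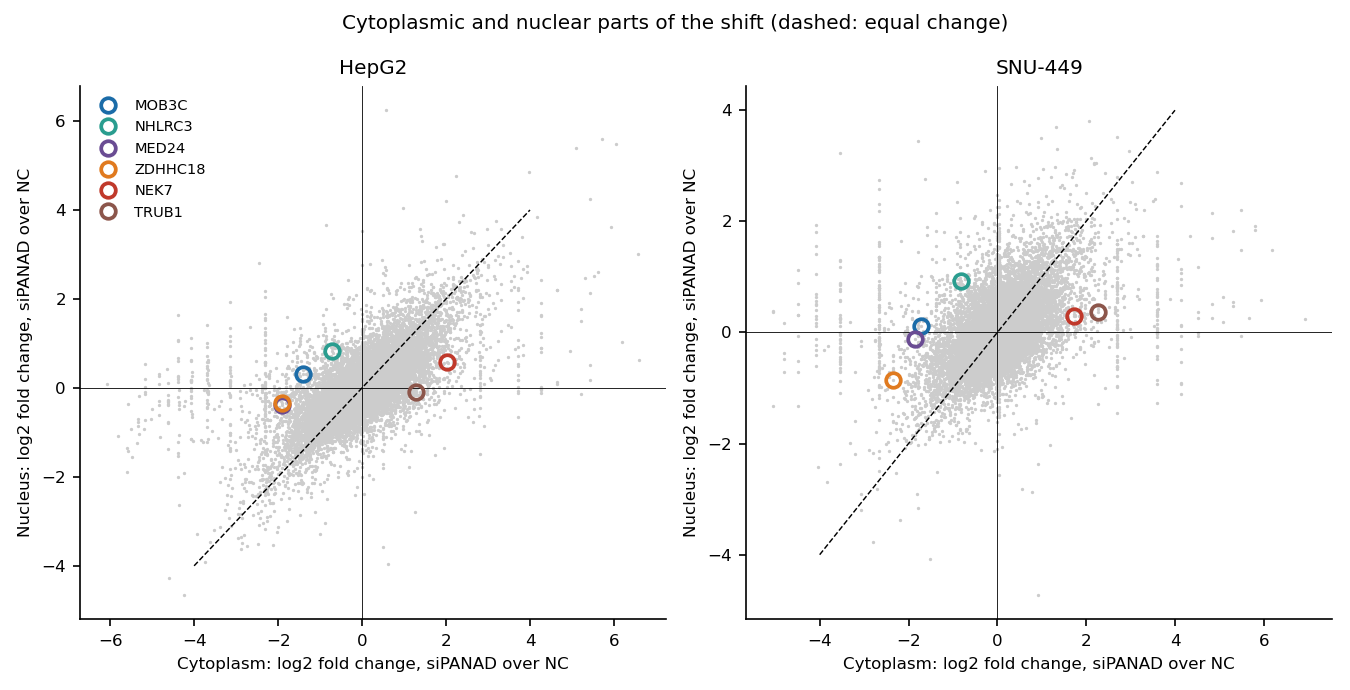
Log2 fold change of siPANAD over NC in the cytoplasm (horizontal) and in the nucleus (vertical) in HepG2 (left) and SNU-449 (right); grey points are genes tested in both lines, rings are the 6 genes and the dashed line marks equal change in both compartments. The 4 genes with a higher ratio lie above the dashed line at -2.36 to -0.70 in the cytoplasm, and NEK7 and TRUB1 lie below it at 1.29 to 2.27.

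Marker sums of the fractions differed between NC and siPANAD libraries, but not all of their genes did. In nuclear libraries the summed unscaled level of 5 nuclear RNAs (MALAT1, NEAT1, KCNQ1OT1, SNHG14 and MEG3) was 1990 and 2079 CPM with NC and 4037 and 3599 CPM with siPANAD in HepG2, and 1094 and 1128 against 3311 and 3437 CPM in SNU-449. In the same libraries the sum of 5 cytoplasmic mRNAs (GAPDH, ACTB, EEF1A1, RPLP0 and TPT1) was 8204 and 8376 against 7516 and 7395 CPM in HepG2, and 14410 and 14750 against 10920 and 9831 CPM in SNU-449. In cytoplasmic libraries these 5 mRNAs summed to 32530 and 36160 CPM with NC and 46650 and 47810 CPM with siPANAD in HepG2. In SNU-449 cytoplasm they summed to 24450 and 24290 against 28930 and 27050 CPM. The 5 nuclear RNAs summed to 128.4 and 173.7 against 127.7 and 118.8 CPM in HepG2 cytoplasm. In SNU-449 cytoplasm they summed to 18.2 and 13.4 against 25.5 and 23.4 CPM. In HepG2 nuclei NEAT1 alone, at 1168 and 1344 CPM with NC and 3274 and 2875 CPM with siPANAD, made up the higher nuclear sum, while MALAT1 was at 396 and 370 against 391 and 370 CPM and KCNQ1OT1 at 111 and 91.6 against 87.8 and 85.2 CPM. In SNU-449 nuclei NEAT1 (547 and 563 against 2526 and 2682 CPM) and MALAT1 (409 and 409 against 634 and 593 CPM) were both higher with siPANAD, and MEG3 was lower (77.9 and 89.3 against 59.5 and 67.5 CPM). The lower cytoplasmic sum in SNU-449 nuclei lay mostly in ACTB, at 8162 and 8084 against 4567 and 4301 CPM, while RPLP0 was higher with siPANAD (1537 and 1547 against 2214 and 1616 CPM) and GAPDH overlapped (1252 and 1365 against 1334 and 1279 CPM). After the trend of the shift over the mean nucleus to cytoplasm difference of all genes was removed, the shifts of MOB3C, NHLRC3, MED24 and ZDHHC18 were 1.65, 1.45, 1.45 and 1.62 in HepG2 and 1.82, 1.69, 1.72 and 1.57 in SNU-449. Those of NEK7 and TRUB1 were -1.46 and -1.32 in HepG2 and -1.43 and -1.86 in SNU-449. The 6 values in each line kept their direction and were close to those without this step. Over 11829 protein-coding genes the shift and that difference had a Spearman coefficient of only 0.262 in HepG2 and 0.152 in SNU-449. Removing so weak a trend could move the values little. A part of fraction purity in the shifts was not tested.

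The mean effect of siPANAD over both compartments is a different contrast from the shift, but it averages the same cytoplasmic and nuclear changes. For the 5 genes whose shift lay mostly in the cytoplasm, a mean effect opposite in sign to the shift follows in part from the choice. The adjusted p-values of the mean effect are therefore not independent of the choice. The test asked whether the level of each gene differed between siPANAD and NC when the cytoplasmic and nuclear log2 fold changes were averaged. MOB3C, MED24 and ZDHHC18 fell and NEK7 and TRUB1 rose in both lines, whereas NHLRC3 did not pass the test in either. These 5 of 6 calls in each line stand against 57.1% of all genes called in HepG2 (27.8% higher, 29.3% lower) and 48.7% in SNU-449 (23.5% higher, 25.2% lower), so a call in itself was common. In both lines at once 15.6% of 15017 genes fell and 13.2% rose. A lower CPM can come from fewer cells holding the RNA or from less RNA per cell, and these cannot be told apart in pooled cultures.

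ZDHHC18 fell by 1.61 on the log2 scale in SNU-449 (SE 0.07, adjusted p = 1.47e-20 by edgeR's quasi-likelihood test) and by 1.12 in HepG2 (SE 0.09, adjusted p = 1.84e-10). MED24 fell by 1.15 in HepG2 (SE 0.09, adjusted p = 8.66e-11) and by 0.99 in SNU-449 (SE 0.08, adjusted p = 1.43e-13). For MOB3C the log2 change was -0.55 in HepG2 (SE 0.13, adjusted p = 0.000842) and -0.79 in SNU-449 (SE 0.11, adjusted p = 9.7e-08). This mean gives both fractions equal weight and is not a total level per cell. NEK7 rose by 1.31 in HepG2 (SE 0.17, adjusted p = 7.84e-07) and by 1.01 in SNU-449 (SE 0.12, adjusted p = 3.71e-08). TRUB1 rose by 0.60 in HepG2 (SE 0.10, adjusted p = 1.29e-05) and by 1.32 in SNU-449 (SE 0.10, adjusted p = 7.26e-14). NHLRC3 had mean changes of 0.07 (SE 0.11, adjusted p = 0.641) and 0.06 (SE 0.10, adjusted p = 0.655), its cytoplasmic and nuclear changes being of opposite sign and similar size.

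The lines differed in the mean siPANAD effect for 2 of the 6 genes. In 1 fit of all 16 libraries, with 20459 genes tested, this difference passed the threshold for 27.4% of all genes (14.3% higher and 13.1% lower in SNU-449). The fall of ZDHHC18 was larger in SNU-449, with a SNU-449 minus HepG2 difference of -0.52 (SE 0.12, edgeR adjusted p = 0.00072). The rise of TRUB1 was larger in SNU-449, by 0.69 (SE 0.14, edgeR adjusted p = 0.000151). TRUB1 was chosen for its ratio in SNU-449, and its cytoplasmic change there (2.27 against 1.29 in HepG2) enters this difference. Its adjusted p is therefore not independent of the choice. The differences for MOB3C of -0.28 (SE 0.17, edgeR adjusted p = 0.254), for NEK7 of -0.32 (SE 0.23, edgeR adjusted p = 0.366), for MED24 of 0.13 (SE 0.12, edgeR adjusted p = 0.510) and for NHLRC3 of -0.03 (SE 0.16) did not pass, which does not show that the lines responded alike.

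The 6 genes differed in their mean distribution between nucleus and cytoplasm, taken relative to the typical gene since both fractions were TMM-scaled together. Averaged over NC and siPANAD, the nucleus minus cytoplasm difference is a different contrast from the shift but shares its libraries. The siPANAD ratios, which are part of the shift, enter this average, so its adjusted p-values are not independent of the choice. The average difference passed the test for 4 of the 6 in HepG2 and all 6 in SNU-449. Of all genes it passed for 84.5% in HepG2 (43.5% higher in the nucleus, 41% lower) and 86.6% in SNU-449 (47.8% and 38.8%). In both lines at once 36% of genes were higher in the nucleus and 34.2% lower, and of the 6 NHLRC3 and MED24 were among the former and ZDHHC18 and TRUB1 among the latter. NHLRC3 had the highest values of the 6, with log2 differences of 1.54 (SE 0.11, edgeR adjusted p = 1.96e-12) in HepG2 and 1.71 (SE 0.10, edgeR adjusted p = 5.34e-18) in SNU-449. MED24 was also higher in the nucleus on this average, at 1.28 (SE 0.09, edgeR adjusted p = 1.49e-12) and 0.50 (SE 0.08, edgeR adjusted p = 2.25e-07). ZDHHC18 was lower in the nucleus, at -0.82 (SE 0.09, edgeR adjusted p = 1.03e-08) and -1.17 (SE 0.07, edgeR adjusted p = 3.15e-18). TRUB1 was lower in the nucleus on this average, at -0.80 (SE 0.10, edgeR adjusted p = 5.46e-08) and -0.66 (SE 0.10, edgeR adjusted p = 1.44e-07). MOB3C was at 0.23 (SE 0.13, edgeR adjusted p = 0.0966) in HepG2 and 0.57 (SE 0.11, edgeR adjusted p = 9.7e-06) in SNU-449. NEK7 was at -0.24 (SE 0.17, edgeR adjusted p = 0.198) and 0.35 (SE 0.12, edgeR adjusted p = 0.00799). The NEK7 value in SNU-449 did not pass without cytoplasm NC replicate 2 (0.12) or without cytoplasm siPANAD replicate 1 (0.23). In HepG2 it passed at -0.42 both without cytoplasm NC replicate 1 and without nucleus siPANAD replicate 1, and turned to 0.12 without cytoplasm NC replicate 2. The MOB3C value in HepG2 passed with DESeq2-style size factors (RLE, 0.33), without cytoplasm NC replicate 2 (0.32) and without nucleus NC replicate 2 (0.32). This average includes the siPANAD libraries, so it is not the distribution in control cells. With NC alone the log2 difference was -0.62 in HepG2 and -0.35 in SNU-449 for MOB3C, 0.76 and 0.84 for NHLRC3, 0.51 and -0.37 for MED24, -1.60 and -1.92 for ZDHHC18, 0.48 and 1.06 for NEK7 and -0.11 and 0.29 for TRUB1. Its sign was opposite to that of the average for MOB3C in both lines, for MED24 and TRUB1 in SNU-449 and for NEK7 in HepG2.

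The difference between lines in this mean distribution passed the test for 3 of the 6 genes, beside 43.6% of all genes (25.8% higher and 17.8% lower in SNU-449). With RLE scaling in place of TMM the median of this line difference over all genes was -0.01 in place of 0.14, and the calls were 4324 higher and 4553 lower in place of 5286 and 3635. MED24 was more nuclear in HepG2 than it was in SNU-449, where the difference was lower by -0.75 (SE 0.12, edgeR adjusted p = 1.07e-06), and by -0.91 with RLE scaling. ZDHHC18 was at -0.31 (SE 0.12, edgeR adjusted p = 0.0369), and at -0.47 with RLE scaling. NEK7 was at 0.63 (SE 0.23, edgeR adjusted p = 0.0291) and did not pass with RLE scaling (0.47, edgeR adjusted p = 0.094) or DESeq2 (0.46, adjusted p = 0.134). The ZDHHC18 and NEK7 calls lay near the threshold and were lost in many fits that left out 1 library. The ZDHHC18 call was lost in 10 of 16 fits that left out 1 library: HepG2 cytoplasm NC replicate 1, either cytoplasm siPANAD library, nucleus NC replicate 2 or nucleus siPANAD replicate 2, or SNU-449 cytoplasm NC replicate 2, nucleus NC replicate 2, cytoplasm siPANAD replicate 2 or either nucleus siPANAD library, with values of -0.31 to -0.21. The NEK7 call was lost in 9 of 16: HepG2 cytoplasm NC replicate 2, either nucleus NC library, cytoplasm siPANAD replicate 2 or nucleus siPANAD replicate 2, or SNU-449 cytoplasm NC replicate 2, either nucleus NC library or cytoplasm siPANAD replicate 1, with values of 0.32 to 0.67. MOB3C (0.37, edgeR adjusted p = 0.0711, and called at 0.50 without HepG2 nucleus NC replicate 1), NHLRC3 (0.21, edgeR adjusted p = 0.304) and TRUB1 (0.17, edgeR adjusted p = 0.378) did not pass.

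**Figure D4:**
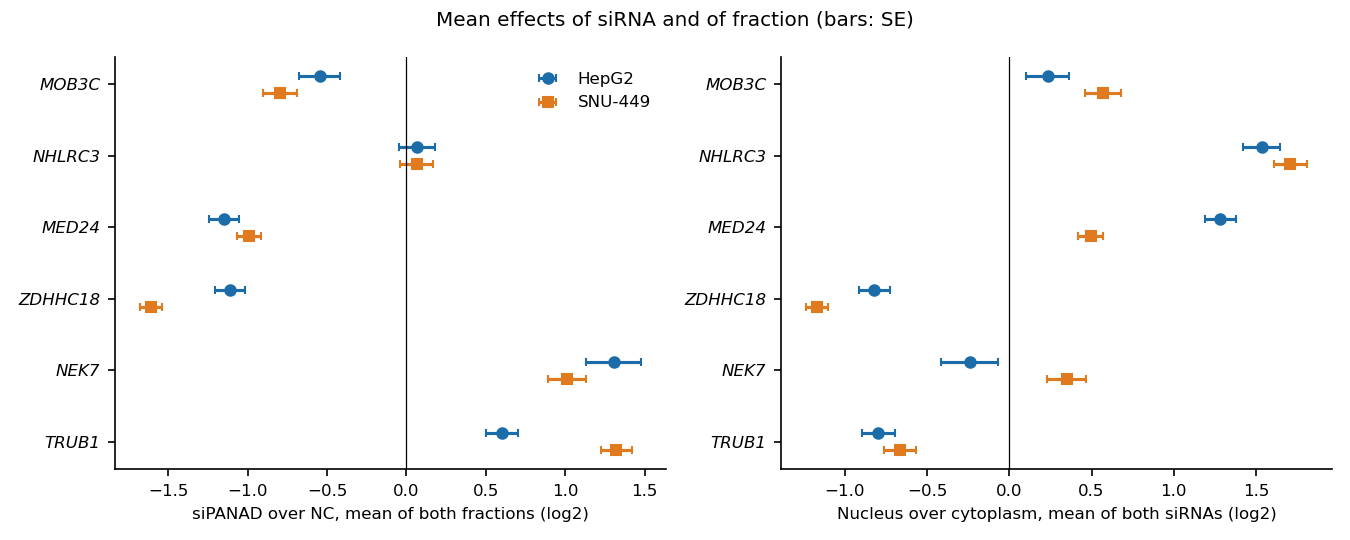
Mean log2 effects for the 6 genes with SE bars, blue circles for HepG2 and orange squares for SNU-449; left, siPANAD over NC averaged over both fractions, and right, nucleus over cytoplasm averaged over both siRNAs. On the left NHLRC3 sits at 0.07 and 0.06 while MOB3C, MED24 and ZDHHC18 lie below 0 and NEK7 and TRUB1 above it; on the right the genes run from -1.17 to 1.71.

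Levels between genes were compared per kilobase of exon (RPKM computed from the TMM-scaled counts and GENCODE 29 exon lengths). In control cytoplasm ZDHHC18 came first, at 24.2 ± 1.11 RPKM (SD, n = 2) in HepG2 and 57.5 ± 4.06 (SD, n = 2) in SNU-449, followed by MED24 at 17.0 ± 2.01 and 11.2 ± 0.264 and TRUB1 at 3.91 ± 0.202 and 2.98 ± 0.0435. With siPANAD TRUB1 came first in both cytoplasms, at 9.52 ± 0.302 RPKM in HepG2 and 14.4 ± 2.86 in SNU-449, ahead of ZDHHC18 at 6.50 ± 0.0495 and 11.2 ± 0.963. MOB3C came last there, at 0.836 ± 0.0735 and 0.856 ± 0.0475 RPKM, in SNU-449 without separation from NHLRC3 at 0.875 ± 0.0253. In the nucleus MED24 was the highest of the 6 in HepG2, at 24.3 ± 0.943 RPKM with NC and 18.6 ± 1.19 with siPANAD. In SNU-449 nuclei ZDHHC18 was the highest, at 15.3 ± 0.907 with NC, and with siPANAD its 8.38 ± 0.162 RPKM overlapped the 7.96 ± 0.750 of MED24. NEK7 was the lowest of the 6 in 3 of the 4 HepG2 groups, at 0.527 to 1.15 RPKM, whereas in SNU-449 nuclei it was above MOB3C. Other neighbours in the order that overlapped were NHLRC3 and NEK7 in SNU-449 cytoplasm NC (1.53 and 1.29 RPKM) and in SNU-449 nucleus NC (2.74 and 2.67 RPKM).

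The genes whose log2 CPM followed each of the 6 most closely over the 16 libraries, after centring each line on its mean, differed from gene to gene. HIC2 (Pearson r = 0.93), TFCP2 (0.92) and PPP4R1 (0.92) followed MOB3C, and PLEKHG3 (0.97), SOCS5P4 (0.97) and CPSF7 (0.96) followed NHLRC3. ZNF629 (0.98), ULK1 (0.97) and TIMM23B (0.97) followed MED24, and ARID3A (0.98), KCTD15 (0.96) and SLC20A2 (0.96) followed ZDHHC18. ATP6V1A (0.93), TRMT1L (0.93) and RBBP4 (0.92) followed NEK7, and TRIM23 (0.94), TRMT10C (0.93) and RACGAP1 (0.93) followed TRUB1. Among the 6 themselves r was 0.84 between MOB3C and MED24, 0.72 between NEK7 and TRUB1 and -0.92 between MED24 and TRUB1. It was -0.32 between NHLRC3 and ZDHHC18, whose ratios were both higher with siPANAD but whose distributions lay on opposite sides. These coefficients describe 16 libraries that share 8 conditions, and each pair shares the libraries' depth and scaling. The shifts that chose the 6 genes lie in the same libraries, so the sign of r among the 6 follows in part from the choice.

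Neighbouring and overlapping genes did not all move with the 6. MKNK1, a kinase activated by MAP kinases, is annotated to start 48 bases from MOB3C on the same strand and shares 133 exonic bases with it, which are 2.25% of the exonic length of MOB3C, so reads there are of uncertain origin. The ratio of MKNK1 had shifts of -0.18 (SE 0.18, edgeR adjusted p = 0.610) in HepG2 and -0.12 (SE 0.16, edgeR adjusted p = 0.658) in SNU-449, and its cytoplasmic level was 22.0 and 19.8 CPM with NC and 32.9 and 28.2 CPM with siPANAD in HepG2. In MOB3C the cytoplasmic level was lower with siPANAD, as given above. THRA, the thyroid hormone receptor alpha gene, overlaps MED24 on the opposite strand with 0 shared exonic bases. Its ratio rose in HepG2, by 0.72 (SE 0.19, edgeR adjusted p = 0.0149), and was at 0.24 (SE 0.17, edgeR adjusted p = 0.368) in SNU-449, where its mean siPANAD effect was -0.35 against 0.34 in HepG2. MED24 also holds MIR6884, within 78 of its exonic bases (1.12%), and SNORD124. PROSER1, which starts 230 bases from NHLRC3 across the stretch printed above, was picked out after its values were seen. Its ratio rose in both lines, by 1.17 (SE 0.19, edgeR adjusted p = 0.000316) and 0.89 (SE 0.23, edgeR adjusted p = 0.00427). Unlike NHLRC3, PROSER1 was lower with siPANAD in nuclei of HepG2, at 80.9 and 62.7 CPM with NC and 45.1 and 48.5 CPM with siPANAD, and its mean effect in HepG2 was -1.20 (SE 0.10, edgeR adjusted p = 6.56e-11). In SNU-449 nuclei PROSER1 was higher with siPANAD, as NHLRC3 was, at 21.5 and 22.9 CPM with NC and 26.9 and 25.6 CPM with siPANAD, and its mean effect was -0.20 (SE 0.11, edgeR adjusted p = 0.147). Strand use in the authors' counting is not given in the sources used here, so reads of opposite-strand genes may not have been separated.

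Relatives of the 6 genes, taken from 12 lists of 111 other genes, mostly kept their ratio within the test's limits. Of 106 tested in HepG2, 5 rose (4.72%) and 6 fell (5.66%), beside the 4.91% and 4.98% of all genes. Of 105 tested in SNU-449, 15 rose (14.3%) and 18 fell (17.1%), beside 9.69% and 10.5%. The median shift of the relatives was -0.06 and -0.03, beside -0.005 and -0.03 over all genes. The HepG2 counts moved to 11 and 3 without the low-count filter, to 11 and 3 without cytoplasm NC replicate 2 and to 8 and 11 without cytoplasm NC replicate 1. Leaving out HepG2 nucleus NC replicate 1 gave 2 rises and leaving out nucleus siPANAD replicate 1 gave 3, and the falls were 1 or 2 without either cytoplasm siPANAD library or nucleus siPANAD replicate 2. In SNU-449 the rises numbered 9 and 8 without nucleus siPANAD replicates 1 and 2, and the falls 9 without cytoplasm siPANAD replicate 2. The counts of relatives are therefore a loose description.

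The closest paralogs gave small shifts. MOB3A, the MOB3 paralog of MOB3C that could be tested, had 0.07 (SE 0.22, edgeR adjusted p = 0.887) in HepG2 and -0.03 (SE 0.17, edgeR adjusted p = 0.938) in SNU-449, and MOB3B did not pass the low-count filter. TRUB2, the mitochondrial paralog of TRUB1, had -0.14 (SE 0.18, edgeR adjusted p = 0.705) and 0.07 (SE 0.13, edgeR adjusted p = 0.782). NEK6, the closest paralog of NEK7, had -0.29 (SE 0.18, edgeR adjusted p = 0.344) in HepG2 and fell in SNU-449, by -0.39 (SE 0.13, edgeR adjusted p = 0.0315). In mean level NEK6 fell in both lines, at -0.46 and -0.30, opposite in sign to NEK7.

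In the MOB family, 0 of 5 other genes tested rose and 1 fell in HepG2, and 1 rose and 2 fell in SNU-449. MOB4, a subunit of the STRIPAK phosphatase complex, fell in ratio in both lines, at -0.88 (edgeR adjusted p = 0.0184) and -0.81 (edgeR adjusted p = 0.00866), opposite to MOB3C. Of 8 Hippo kinases and adaptors 0 passed in HepG2, and 1 rose and 1 fell in SNU-449. Of the NHL-repeat proteins related to NHLRC3, 0 of 6 passed in HepG2 and 1 of 5 rose in SNU-449.

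Among the other Mediator subunits the ratio rose for some and fell for others in both lines. Of 7 other tail subunits 0 passed in HepG2 and 1, MED29, rose in SNU-449 at 0.84 (edgeR adjusted p = 2.92e-05). In mean level 5 of these 7 fell in HepG2, as MED24 did, beside 29.3% of all genes. In SNU-449 2 rose and 3 fell, beside 23.5% and 25.2% of all genes. The list was not tested as a set. Of 8 head subunits 1 rose and 1 fell in HepG2 and 2 rose and 1 fell in SNU-449. MED22 rose in ratio in both lines, at 0.68 (edgeR adjusted p = 0.0195) and 0.58 (edgeR adjusted p = 0.00119), and MED28 fell in both, at -0.85 (edgeR adjusted p = 0.00975) and -1.21 (edgeR adjusted p = 4.71e-07). Of 10 middle subunits with MED14, 0 rose in either line, and 1 fell in HepG2 and 3 in SNU-449. Of 7 genes of the kinase module MED13L (0.87) and CDK19 (0.79) rose in HepG2, and 1 fell in SNU-449.

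Palmitoylation genes moved both ways. The list of other palmitoyltransferase genes includes GOLGA7, an accessory subunit and not an enzyme. Of its 21 genes tested in HepG2 1 rose and 2 fell, and of 22 in SNU-449 4 rose, GOLGA7 among them at 0.87 (edgeR adjusted p = 0.00271), and 4 fell. ZDHHC7 rose in ratio in both lines, at 0.75 (edgeR adjusted p = 0.0113) and 0.43 (edgeR adjusted p = 0.0218), and its mean level fell in both as that of ZDHHC18 did, at -0.95 and -0.92. ZDHHC20 fell in ratio in both, at -0.73 (edgeR adjusted p = 0.0124) and -1.10 (edgeR adjusted p = 0.000194). Of 8 depalmitoylating enzymes 0 rose, and 1 fell in HepG2 and 2 in SNU-449. LYPLA1, a thioesterase that removes palmitate, fell in both, at -0.70 (edgeR adjusted p = 0.0245) and -0.89 (edgeR adjusted p = 0.000104).

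Of the NEK kinases, 1 of 10 rose in HepG2, and 2 of 9 rose and 2 fell in SNU-449. NEK9, a kinase that acts upstream of NEK6 and NEK7 in mitosis, rose in ratio in both lines, at 0.84 (edgeR adjusted p = 0.00694) and 0.78 (edgeR adjusted p = 9.6e-05). NEK9 and NEK7 thus moved oppositely in ratio, while the mean levels of both rose, NEK9 by 0.50 and 0.83. Of the NLRP3 inflammasome genes, 0 of 5 tested passed for the ratio in HepG2, and 1 rose and 1 fell in SNU-449. Of 11 pseudouridine synthases related to TRUB1, 0 passed in HepG2, and 2 rose and 1 fell in SNU-449.

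**Figure D5:**
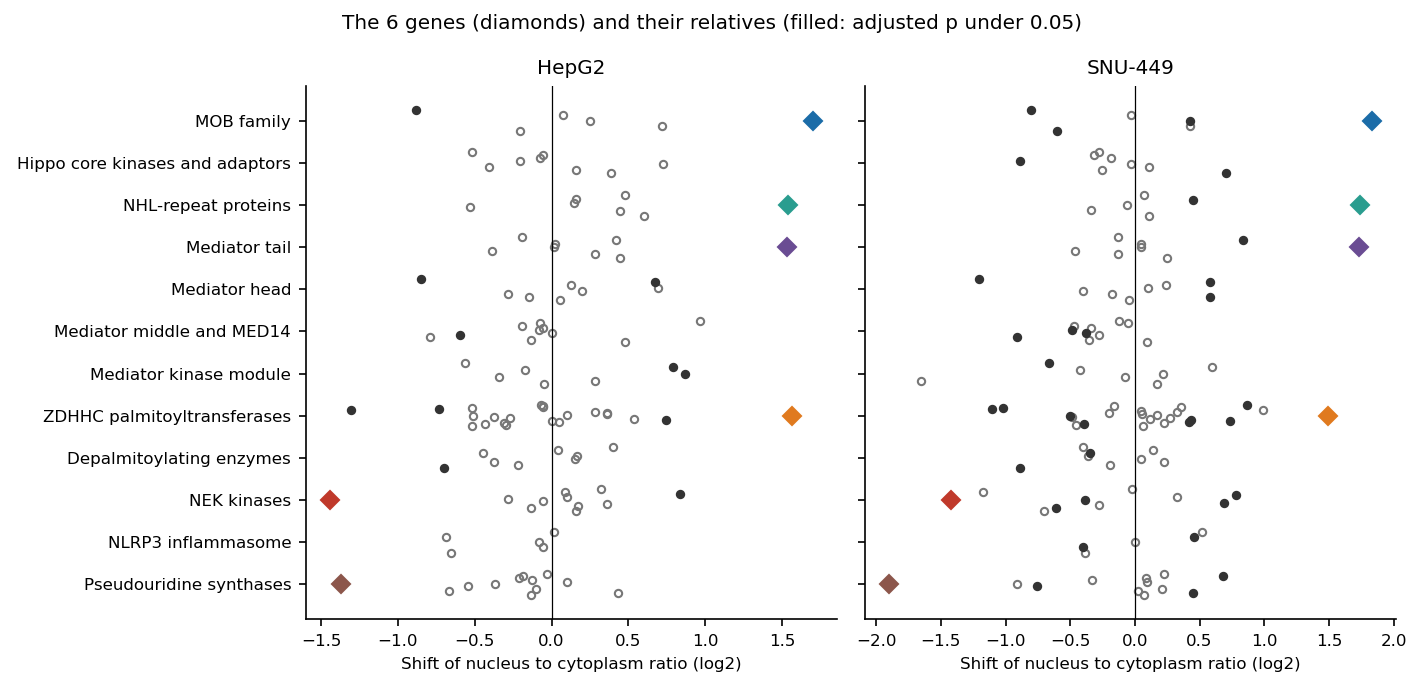
Shift of the nucleus to cytoplasm ratio (log2) in HepG2 (left) and SNU-449 (right) for relatives of the 6 genes, 1 row per list; circles are relatives, filled where the adjusted p was under 0.05, and diamonds are MOB3C, NHLRC3, MED24, ZDHHC18, NEK7 and TRUB1. The diamonds at 1.49 to 1.83 and -1.90 to -1.37 were chosen for their shift, and the relatives run from -1.30 to 0.97 in HepG2 and from -1.66 to 0.99 in SNU-449.

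Gene structure and base composition were features the choice did not use. By the longest principal transcript in GENCODE 29, NEK7 and TRUB1, the genes with a lower ratio, had a GC content of 35.7% and 35.5%, lower than all but 1.76% and 1.54% of 11798 protein-coding genes tested in both lines. Of the genes with a higher ratio, NHLRC3 was at 39.9% and MOB3C, MED24 and ZDHHC18 were at 54.9%, 57.3% and 59.2%, beside a median of 49.6%. Across those genes GC content and the shift had a Spearman coefficient of 0.244 in HepG2 and 0.301 in SNU-449, as a description, since genes are not replicates. With the trend of the shift over GC content removed, a step added after the data were seen, NEK7 was at -1.23 in HepG2 and -1.01 in SNU-449, TRUB1 at -1.15 and -1.49, and NHLRC3 at 1.68 and 2.01. MOB3C, MED24 and ZDHHC18 were at 1.64, 1.45 and 1.46 in HepG2 and 1.69, 1.58 and 1.35 in SNU-449. The direction of all 6 was kept, but removing so weak a trend could hardly reverse shifts of this size, so nothing is read from it.

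The 6 genes had little else of structure in common. NEK7 spans 165458 bases of genome and MOB3C 9177, beside a median of 31346 over protein-coding genes. MOB3C has 3 exons and a 5' untranslated region of 3144 bases in its longest principal transcript, longer than in 99.9% of these genes. MED24 has 26 exons and 34 annotated transcripts, 10 of them with a retained intron, while MOB3C, ZDHHC18 and TRUB1 have 0 such transcripts. The counts are per gene, so these files do not say which transcripts of MED24 were in the nucleus. The 3' untranslated region ran from 430 bases in MED24 to 3761 in ZDHHC18.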

How the data were processed

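Gene counts were deposited by the authors in 1 table per line and used as deposited. Reads had been trimmed and aligned to hg38, for which the submitters' processing notes name Trim Galore 0.6.4 and HISAT2 2.2.1. The counting program, annotation release and strand setting are not given in the sources used here. Of the 67938 identifiers, 61398 matched a symbol, and 1 gene entry broken over several lines (ANK2) was left out. Library totals and the 3-count limit, 0.0989 to 0.185 CPM, cover counting error only.

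In R 4.3.3 with edgeR 4.0.16, genes were kept by filterByExpr (minimum count 10), scaled by TMM and fitted with 1 mean per group over the 8 libraries of a line, or all 16 for line differences (glmQLFit robust, glmQLFTest, two-sided, Benjamini-Hochberg over all genes tested, threshold 0.05). The common biological coefficient of variation was 0.101 in HepG2 and 0.0728 in SNU-449. The code was checked on simulated counts. TMM hides any change shared by most genes of a fraction. Alternatives were DESeq2 1.42.0, RLE scaling, no filter, replicate blocks, TMM within each fraction, removal of trends over nuclear share or GC content (lowess), and leaving out each library.

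Named besides the 6 genes were the 3 genes most correlated with each (log2 CPM, prior count 2), neighbours in rank, overlapping genes, paralogs and, in each list of relatives, up to 3 genes shifted the same way in both lines. The 6 genes and the lists were chosen with earlier results of these data known.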

Additional observations from a re-analysis of the deposited data

Results flagged for a closer look

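The mean effect of siPANAD over both fractions differed between the lines, by a test of the difference itself in the fit of 16 libraries, for ZDHHC18 (-0.52, SNU-449 minus HepG2, log2) and TRUB1 (0.69). Since TRUB1 was chosen for its ratio in SNU-449, its difference is not independent of the choice. All siPANAD libraries of ZDHHC18 were below the NC libraries of their compartment in both lines, so for ZDHHC18 the lines differed in size and not in direction. All cytoplasmic siPANAD libraries of TRUB1 were above their NC libraries in both lines. The nuclear part of TRUB1 was -0.08 in HepG2, where the groups overlapped, and 0.37 in SNU-449. Its mean effect was a rise in both lines. The mean difference between nucleus and cytoplasm also differed between the lines for MED24 (-0.75), ZDHHC18 (-0.31) and NEK7 (0.63). For NEK7 the mean difference was -0.24 in HepG2, where it did not pass the test, and 0.35 in SNU-449. Such line differences passed for 27.4% of all genes for the siRNA effect and 43.6% for the fraction difference.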

How the results depend on the processing

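Of 192 alternative values of the ratio shift of the 6 genes, 189 stayed within 1 SD of the replicates and 3 moved further, all with the GC trend removed (TRUB1 to -1.15 in HepG2 and -1.49 in SNU-449, NHLRC3 to 2.01 in SNU-449). None changed direction. Leaving out a library moves its group mean by less than this SD, so the leave-one-out values could hardly move further. The count of 189 is thus no measure of robustness to single libraries. Of the alternative values of the mean effects and line differences, 499 kept direction and side of the threshold, 25 lost the call, 6 gained it and 10 changed sign, all of values that had not passed the test. When single libraries were left out, the NHLRC3 mean siPANAD effect ran from -0.055 to 0.24 in HepG2 and from -0.000621 to 0.16 in SNU-449. Its line difference ran from -0.17 to 0.081, and was 2.0e-05 without the low-count filter. The NEK7 fraction difference in HepG2 ran from -0.42 to 0.12. The cause was not tested.

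The siPANAD effect was called for 5 of the 6 genes in each line, and its line difference for 2, under every alternative that kept all libraries. Without these alternatives, 57.1% of all genes were called for the effect in HepG2, 48.7% in SNU-449 and 27.4% for the line difference. The siPANAD effect calls of the 6 genes are not independent of the choice. The line difference of the fraction effect was called for 1 to 3 of the 6 when single libraries were left out; that of NEK7 ran from 0.32 to 0.87 and that of ZDHHC18 from -0.39 to -0.21 (-0.28, edgeR adjusted p = 0.0834, without the low-count filter). Relatives with a called shift numbered 2 to 11 up and 1 to 11 down in HepG2, and 8 to 14 up and 9 to 17 down in SNU-449, when single libraries were left out, and 11 up and 3 down in HepG2 without the filter. With 1 library left in a group, that library was assumed to vary like the other groups.

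Same-numbered libraries were not stated to share a culture, and their deviations from group means correlated at -0.125 to 0.0845, so the numbers were not taken as pairing. With a replicate block the NEK7 line difference of the fraction effect was 0.63 (edgeR adjusted p = 0.0578), and no other call among the 6 genes changed; 9791 genes in HepG2 and 8614 in SNU-449 were called for the siPANAD effect, in place of 9994 and 8715. NEK7 and MOB3C, with as few as 28 and 58 counts in a library, carry the largest errors.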

Other observations

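The mean level of the relatives of these 6 genes also differed with siPANAD, apart from any ratio. In HepG2 28 of 106 rose (26.4%) and 41 fell (38.7%), beside 27.8% and 29.3% of all genes. In SNU-449 34 of 105 rose (32.4%) and 28 fell (26.7%), beside 23.5% and 25.2% of all genes, by edgeR's quasi-likelihood test with Benjamini-Hochberg adjustment over all genes. Of 5 inflammasome genes tested around NEK7, 2 rose and 2 fell in HepG2, and 4 rose and 0 fell in SNU-449. CASP1 (caspase-1, the protease of inflammasomes) rose in HepG2 by 2.41 (SE 0.22, edgeR adjusted p = 5.02e-10) and GSDMD (gasdermin D, its pore-forming substrate) by 1.09 (SE 0.12, edgeR adjusted p = 4.52e-07). In SNU-449 GSDMD rose by 0.27 (SE 0.06, edgeR adjusted p = 0.000528), and CASP1, at a mean of 0.42 CPM, had a difference of -0.56 (SE 0.43, edgeR adjusted p = 0.295). TXNIP, a thioredoxin-binding protein linked to NLRP3, rose in SNU-449 by 2.06 (SE 0.16, edgeR adjusted p = 1.41e-13) and fell in HepG2, by -0.53 (SE 0.09, edgeR adjusted p = 1.57e-05). IL18, a cytokine that caspase-1 matures, fell in HepG2, at -1.005 (SE 0.13, edgeR adjusted p = 3.99e-07), and rose in SNU-449 by 0.20 (edgeR adjusted p = 0.0222). Of 11 other pseudouridine synthase genes 3 rose and 4 fell in HepG2, and 4 rose and 3 fell in SNU-449. Among them DKC1, the enzyme of box H/ACA snoRNPs, fell in both lines, at -1.44 (SE 0.10, edgeR adjusted p = 1.72e-12) and -0.39 (SE 0.07, edgeR adjusted p = 1.02e-05). PUS10 (0.59 and 1.07) and RPUSD2 (0.51 and 0.57) rose in both, as TRUB1 did. These genes were picked out after their values were seen, and their differences between the lines were not tested.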
